A study of Mus musculus with 6 samples.

Results

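The respiratory chain genes are the genes for the subunits of the 5 enzyme complexes of oxidative phosphorylation, and they were followed here in colon RNA of Adamts4 knockout mice (KO) and wild-type mice (WT). They were chosen by symbol: mt-Nd, mt-Co, mt-Cyt and mt-Atp for the mitochondrial genome, and Ndufa, Ndufb, Ndufc, Ndufs, Ndufv, Sdha to Sdhd, Uqcr, Cox4 to Cox8 and Atp5 for the nuclear genome, without the Ndufaf assembly factors. This gave 102 genes of 21899 in the deposited table, 13 mitochondrially encoded and 89 nuclear encoded. Complex I had 7 mitochondrial and 40 nuclear members, complex II 4 nuclear members, complex III 1 and 8, complex IV 3 and 19, and complex V 2 and 18. The symbols are not a perfect guide to the complexes. Ndufa4 counts here with complex I but is known as a subunit of complex IV, Cox7a2l is known as a factor that joins complexes III and IV into supercomplexes, and the cytochrome genes Cyc1 and Cycs fall outside the symbols and are described with the electron carriers.

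The study set 3 colon libraries of KO mice against 3 of WT mice, and every mouse had received 2.5% dextran sodium sulfate (DSS), a polymer that damages the gut lining and causes colitis, for 7 days. The missing protein, ADAMTS4, is an extracellular protease of proteoglycans. Both groups carried the DSS treatment, so each value compares genotypes within colitis, and untreated colon was not analysed here. The sources used here do not state the knockout allele, the strain, the sex or the age. They also do not say that each library was made from 1 mouse, so a p-value reflects the spread between libraries, which may be partly technical.

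Respiratory complexes I, III and IV pass electrons from NADH and ubiquinol to oxygen and pump protons across the inner mitochondrial membrane, complex II feeds electrons from succinate without pumping, and complex V (ATP synthase) uses the proton gradient to make ATP. Complexes I, III, IV and V hold subunits of both genomes, so a cell needs RNA from nucleus and mitochondrion for each of them, whereas complex II is made from nuclear genes alone. Colonocytes are known for burning butyrate, a bacterial fatty acid, through this chain.

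The libraries held 15786214 to 22932125 counts, and the targeted gene Adamts4 had 0 counts in each KO library and 900, 992 and 997 counts in WT. KO 3 stood apart from the other libraries on the first principal component (42.9% of the variance), with a score of 73.1, against -16.6 and 26.5 in the other KO libraries and -47.0 to -6.88 in WT. The epithelial markers had counts in all 6 libraries, with Epcam at 1490 ± 130 CPM in KO and 1230 ± 30.3 CPM in WT (SD, n = 3 each). CPM are counts scaled for depth with the TMM factors of edgeR, and any adjusted p below is from its quasi-likelihood test over all 14553 genes tested unless another tool is named.

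No respiratory chain gene passed the test at an adjusted p below 0.05. Of the 102 members, 95 had enough counts to be tested, and edgeR called 0 of them, against 23 of all genes tested (0.158%, 1 higher and 22 lower in KO). At an unadjusted p below 0.05, 24 of the 95 members were higher in KO (25.3%) and 0 lower, against 5.17% higher and 7.85% lower among all genes. In 28 members (29.5%) every KO library lay above every WT library, against 9.34% of all genes. All 28 were among the 82 tested nuclear members (34.1%), and 0 of the 13 mitochondrial members separated the groups. Of the nuclear members, 77 were highest in KO 3, so they are not independent observations. In 0 members did every KO library lie below every WT library, against 10.2% of all genes. DESeq2, run as an alternative, called 1 member, Cox7a1, as higher in KO. Among all 15639 genes to which it gave an adjusted p, it called 106 higher (0.678%). The log2 fold change was above 0 in 93 of 95 members (97.9%), against 54.2% of all genes tested. Its median was 0.354 over the members, beside a median of 0.035 over all genes tested.

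**Figure D1:**
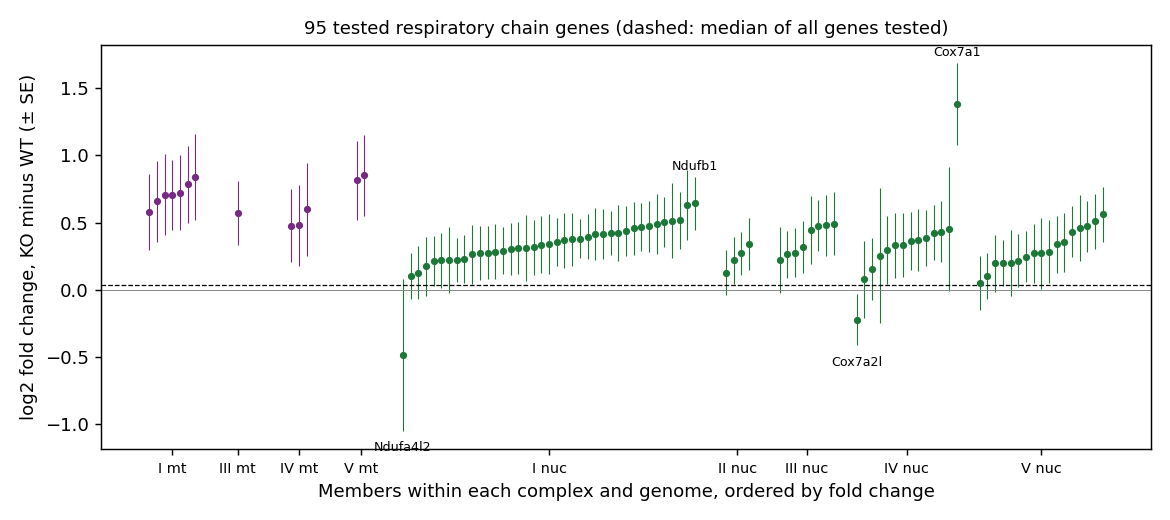
Log2 fold change, KO minus WT, with its standard error, for each of the 95 tested members, grouped by complex and by genome (mt mitochondrial, purple; nuc nuclear, green) and ordered within each group. The mitochondrial members lay between 0.48 and 0.85, most nuclear members lay between 0 and 0.64, and Cox7a1 stood above all others at 1.39.

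The members missing from the test were 7 nuclear genes of low count. Ndufb11b, Cox7b2, Cox8c and a second Ensembl entry named Atp5o had no count in any library. The pseudogene Cox5b-ps had 1 count in KO 1 and 0 in the other 5 libraries. Cox6a2, the muscle form of subunit VIa, had 6, 0 and 1 counts in KO and 0, 2 and 1 in WT. Cox8b, another subunit form of muscle, had 6, 4 and 5 counts in KO and 7, 3 and 3 in WT. No difference was detectable at this depth.

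KO 2 was high for the mitochondrial genome only, and KO 3 for both genomes. In KO 1, KO 2 and KO 3 the mitochondrially encoded members made up 4.03%, 7.66% and 9.50% of all counts, against 6.05%, 4.29% and 4.46% in WT 1, WT 2 and WT 3. The nuclear encoded members made up 1.46%, 1.54% and 2.13% in KO, against 1.55%, 1.55% and 1.33% in WT. KO 1 was the lowest library of all for the mitochondrial genome and lay inside the WT range for the nuclear genome. The 95% Wilson intervals of these shares were at most 0.013 percentage points wide to either side, which covers counting error only. The group means were 7.06 ± 2.78% in KO and 4.93 ± 0.971% in WT for the mitochondrial genome, and 1.71 ± 0.367% in KO and 1.48 ± 0.127% in WT for the nuclear genome (SD, n = 3 each). Both pairs of groups overlapped.

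**Figure D2:**
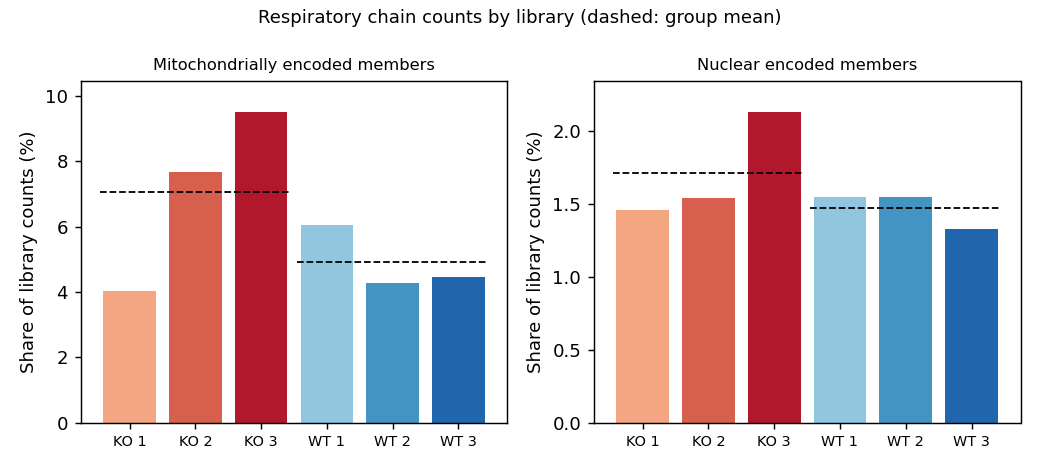
Share of all library counts (%) from the 13 mitochondrially encoded members (left) and the 89 nuclear encoded members (right) in each of the 3 KO and 3 WT libraries, with dashed lines at the group means. KO 2 and KO 3 had 7.66% and 9.50% mitochondrial counts, above every WT library, while only KO 3 had a nuclear share (2.13%) above the WT range.

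The ratio of mitochondrial to nuclear respiratory chain counts was 2.76, 4.96 and 4.45 in KO, against 3.91, 2.76 and 3.35 in WT. It averaged 4.06 ± 1.15 in KO and 3.34 ± 0.573 in WT, and the lowest KO library lay at the lowest WT library. On deposited TPM, which are scaled for gene length, the ratio was 2.35, 4.17 and 3.53 in KO, against 3.14, 2.32 and 2.85 in WT. KO 2 had the highest ratio on both scales.

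Gene by gene, most members followed the order of their genome. The median log2 difference of the 13 mitochondrial members from their WT mean was -0.085, 0.87 and 1.03 in KO 1, KO 2 and KO 3, against 0.20, -0.15 and -0.036 in WT 1, WT 2 and WT 3. For the 82 tested nuclear members it was 0.10, 0.10 and 0.73 in KO, against 0.077, 0.029 and -0.12 in WT. All 13 mitochondrial members were above every WT library in KO 2 and in KO 3, and 0 of 13 in KO 1. Of the nuclear members, 77 of 82 had their highest value of all libraries in KO 3, and 41 in KO 1, 42 in KO 2 and 78 in KO 3 lay above every WT library. WT 3 held the lowest value for 64 of 82 nuclear members, and WT 2 for 10 of 13 mitochondrial members. Such counts were not made over all genes tested, so they have no background share beside them. The median log2 difference over all genes tested was -0.01, -0.015 and 0.005 in KO 1, KO 2 and KO 3. Without KO 3 the median log2 fold change was 0.44 for mitochondrial and 0.10 for nuclear members, and 76 of 95 members were above 0. Without KO 1 it was 0.96 and 0.44.

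**Figure D3:**
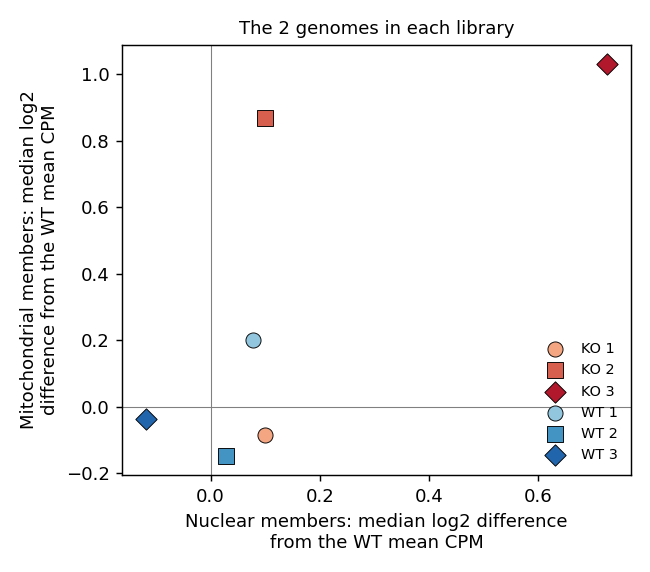
Median log2 difference from the WT mean CPM in each library, over the 82 tested nuclear members (horizontal) and the 13 mitochondrial members (vertical), with KO libraries in reds and WT libraries in blues. KO 3 was high on both axes (0.73 and 1.03), KO 2 on the mitochondrial axis (0.10 and 0.87), and KO 1 on neither (0.10 and -0.085).

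Cell type markers also differed between these libraries. The 12 epithelial markers, all found in every library, summed to 15061, 13919 and 18138 CPM in KO, against 16172, 14694 and 12999 CPM in WT, with 11 of 12 log2 fold changes above 0 and none called. The 14 markers of surface colonocytes, all found in every library, summed to 12350, 16882 and 22639 CPM in KO, against 17737, 16034 and 13904 CPM in WT, with 6 of 14 above 0 and none called. KO 3 had the highest and WT 3 the lowest epithelial sum. The same libraries were the highest and the lowest in the nuclear respiratory chain share. This order did not hold for every epithelial marker. Krt8, among the largest parts of the sum, followed it, with 3700, 3450 and 4620 CPM in KO, against 3770, 3500 and 3050 CPM in WT. Cdh1 did not, with 1510, 1400 and 1240 CPM in KO, against 1270, 1280 and 1320 CPM in WT. The high surface colonocyte sum of KO 3 came from Car1, a carbonic anhydrase, with 1280, 2510 and 8520 CPM in KO, against 3580, 2020 and 1570 CPM in WT. Without Car1, a step chosen after its values were seen, the other 13 markers summed to 11068, 14376 and 14120 CPM in KO, against 14152, 14015 and 12332 CPM in WT, and KO 3 did not stand out. The 8 fibroblast markers, all found in every library, summed to 4171, 2382 and 674 CPM in KO, against 3027, 2232 and 4618 CPM in WT, with 0 of 8 above 0. Among markers of other cells, those of the crypt base and dividing cells lay above 0 in 10 of 10 genes (median log2 fold change 0.78) and those of goblet cells in 5 of 8 (0.21). Markers of neutrophils and macrophages lay above 0 in 0 of 8 genes each (-2.51 and -0.83), of B and plasma cells in 1 of 8 (-0.80), of T cells in 2 of 8 (-0.18), of adipocytes in 0 of 5 (-1.08) and of erythroid cells in 0 of 6 (-2.24), and edgeR called no gene of these 8 lists. DESeq2 called 5 crypt base and dividing cell genes and 1 goblet gene higher (against 0.678% of all genes), and 5 neutrophil, 3 B and plasma cell, 1 adipocyte and 1 erythroid gene lower (against 2.76% of all genes). The part of cell composition in the respiratory chain values was not tested, and in bulk tissue a change in the number of cells of a type and a change in RNA per cell cannot be told apart.

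The mitochondrial genome encodes only core subunits of the complexes. On TPM mt-Co1, the catalytic subunit of cytochrome c oxidase (complex IV), was the most abundant member, at 40250 ± 14810 TPM in KO and 30280 ± 7105 TPM in WT (SD, n = 3 each). It supplied 49.8%, 46.6% and 52.0% of the mitochondrial counts in KO, against 54.7%, 51.3% and 50.2% in WT. Its level was 20970, 34910 and 50530 CPM in KO, against 32460, 21350 and 22480 CPM in WT. KO 3 and KO 2 were highest and KO 1 lowest, and the groups overlapped (log2 fold change 0.48 ± 0.30, SE; adjusted p = 0.540). The other core subunits of complex IV were likewise highest in KO 3 and KO 2. mt-Co2, which takes electrons from cytochrome c, had 4052, 6677 and 9061 CPM in KO, against 5424, 4371 and 4428 CPM in WT (0.48 ± 0.27, adjusted p = 0.502). mt-Co3, a structural core subunit, had 4230, 7493 and 11490 CPM in KO, against 6529, 3908 and 4887 CPM in WT (0.60 ± 0.35, adjusted p = 0.506). KO 1 lay below the WT libraries for mt-Co2 and inside their range for mt-Co3.

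The mitochondrial genome also holds 2 genes of ATP synthase, and one of them, mt-Atp6, had the largest log2 fold change among the mitochondrial members. mt-Atp6, subunit a of the proton channel, had 2713, 6029 and 5296 CPM in KO, against 3206, 2134 and 2440 CPM in WT (0.85 ± 0.30, adjusted p = 0.305). mt-Atp8, a short subunit next to it, had 114, 257 and 240 CPM in KO, against 136, 97.6 and 114 CPM in WT (0.81 ± 0.30, adjusted p = 0.315). Here KO 2, not KO 3, was the highest library, and KO 1 again lay inside the WT range. Within the mitochondrial counts, mt-Atp6 took 6.44%, 8.05% and 5.45% in KO, against 5.41%, 5.12% and 5.45% in WT, so KO 1 and KO 2 had a larger share of it than every WT library and KO 3 did not. The 2 genes share bases on one transcript, and reads from the shared stretch cannot be assigned to one of them. The transcript of mt-Atp8 (GENCODE M21, GRCm38, chrM:7766-7969, plus strand, protein-coding) is shown to mark that stretch, with the last 43 of its 204 bases, which also begin mt-Atp6, in capitals.
mt-Atp8: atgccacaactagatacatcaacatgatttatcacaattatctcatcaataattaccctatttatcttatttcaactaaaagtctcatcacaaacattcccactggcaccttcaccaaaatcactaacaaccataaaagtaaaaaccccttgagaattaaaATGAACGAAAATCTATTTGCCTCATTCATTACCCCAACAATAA

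The 7 mitochondrial subunits of complex I form its proton-pumping membrane arm. Their log2 fold changes ran from 0.58 to 0.84 with a median of 0.71, and 5 of 7 had an unadjusted p below 0.05, against 5.17% of all genes higher in KO. All 7 were above every WT library in KO 2 and in KO 3 but not in KO 1, so the 5 are not independent observations. mt-Nd1, at the junction with the peripheral arm, had 2563, 4560 and 5895 CPM in KO, against 2825, 2500 and 2565 CPM in WT (0.72 ± 0.28, adjusted p = 0.342). mt-Nd4, one of the pump subunits, had 2085, 4819 and 4345 CPM in KO, against 2646, 2076 and 2176 CPM in WT (0.71 ± 0.30, adjusted p = 0.382). KO 2 and KO 3 were above every WT library for both genes, and KO 1 overlapped with WT. mt-Nd2, mt-Nd3, mt-Nd4l, mt-Nd5 and mt-Nd6 had log2 fold changes of 0.71, 0.66, 0.84, 0.58 and 0.78, with adjusted p between 0.317 and 0.432. mt-Nd4l shares 7 bases with mt-Nd4. The end of mt-Nd5 lies over the end of mt-Nd6 by 14 bases on opposite strands, and whether reads were counted by strand is not given in the sources used here. mt-Nd6 is the one member of the light strand, and its values of 211, 439 and 440 CPM in KO, against 238, 185 and 210 CPM in WT, again put KO 2 and KO 3 above every WT library. mt-Cytb, the cytochrome b of complex III, had 2833, 4964 and 5169 CPM in KO, against 3090, 2706 and 2942 CPM in WT (0.57 ± 0.24, adjusted p = 0.368).

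Set against the WT mean, KO 3 was high in both genomes and KO 2 in the mitochondrial genome, complex by complex. The mitochondrial share of complex I was 0.886, 1.91 and 1.94 times the WT mean in KO 1, KO 2 and KO 3, that of complex III 0.918, 1.72 and 1.71 times, that of complex IV 0.782, 1.40 and 1.94 times and that of complex V 0.984, 2.34 and 1.97 times. The nuclear shares in KO 1, KO 2 and KO 3 were 1.01, 1.08 and 1.54 times the WT mean for complex I, 1.02, 1.06 and 1.30 times for complex II, 1.02, 1.11 and 1.54 times for complex III, 0.898, 1.02 and 1.52 times for complex IV and 1.01, 1.02 and 1.36 times for complex V. In the nuclear parts KO 2 lay at 1.02 to 1.11 times the WT mean, close to the WT libraries, whose highest was 1.11. Per length, complex IV leaned most to the mitochondrial genome, with a TPM ratio of mitochondrial to nuclear members of 5.80, 9.18 and 8.53 in KO, against 7.57, 5.56 and 6.99 in WT. Complex V lay near parity, with 0.818, 1.84 and 1.12 in KO, against 0.981, 0.657 and 0.856 in WT. These sums are descriptions over chosen genes and were not tested.

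**Figure D4:**
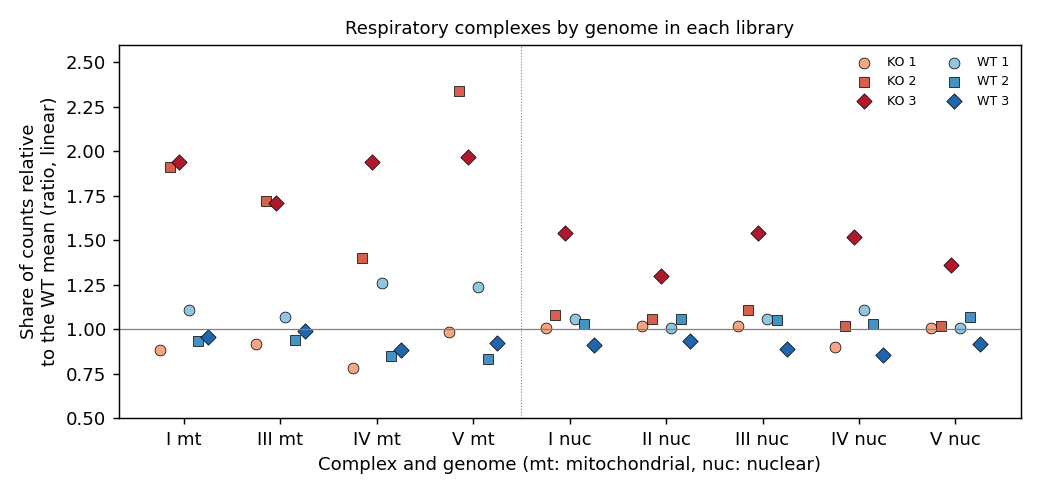
Share of library counts for each complex, split by genome, divided by its WT mean (linear ratio), with 1 point per library, KO points left of WT points. KO 2 and KO 3 lie at 1.40 to 2.34 in the mitochondrial parts, and KO 3 alone lies clear of the others, at 1.30 to 1.54, in the nuclear parts.

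The nuclear subunits of complex I were a little higher in KO in 38 of 39 tested members, with a median log2 fold change of 0.338, and none was called. The 7 core subunits, which carry the flavin, the iron-sulfur clusters and the quinone site, had a median of 0.380. The 31 tested accessory subunits had a median of 0.338. The lowest p in the complex belonged to Ndufb1 (ENSMUSG00000113902, chromosome 12, 101968090 to 101977068 on GRCm38), an accessory subunit of the membrane arm. It had 21.7, 25.5 and 33.8 CPM in KO, against 18.6, 16.9 and 16.4 CPM in WT. Every KO library lay above every WT library, KO 3 highest (0.64 ± 0.20, adjusted p = 0.248). Ndufv2 (ENSMUSG00000024099, chromosome 17, 66078638 to 66101559), a core subunit of the NADH-oxidising tip, had 164, 200 and 258 CPM in KO, against 148, 151 and 140 CPM in WT. Its groups did not overlap either (0.50 ± 0.18, adjusted p = 0.315). At the low end, Ndufa6, an accessory subunit and the most abundant nuclear member of the complex per length, had 118, 141 and 192 CPM in KO, against 162, 127 and 111 CPM in WT, and the groups overlapped (0.18 ± 0.22, adjusted p = 0.776).

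Complex II, the only complex without a mitochondrially encoded subunit, showed small differences. Sdha, the flavoprotein that oxidises succinate, had 410, 410 and 473 CPM in KO, against 381, 406 and 396 CPM in WT (0.13 ± 0.17, adjusted p = 0.787). Sdhb, the iron-sulfur subunit, had 187, 180 and 274 CPM in KO, against 169, 181 and 156 CPM in WT (0.34 ± 0.19, adjusted p = 0.496). The membrane anchors Sdhc and Sdhd had log2 fold changes of 0.27 and 0.22 (adjusted p = 0.511 and 0.643). KO 3 was the highest library for all 4 genes, and the KO libraries lay above all WT libraries for Sdha and Sdhc only.

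All 8 nuclear members of complex III had a log2 fold change above 0, with a median of 0.380 and none called. The core proteins Uqcrc1 and Uqcrc2 and the Rieske iron-sulfur protein Uqcrfs1 had a median of 0.276, and the 5 small subunits of 0.476. Uqcr11, a small subunit, had 86.2, 83.4 and 129 CPM in KO, against 76.7, 73.6 and 64.1 CPM in WT, without overlap (0.48 ± 0.19, adjusted p = 0.351). Uqcrq, a small subunit, had 147, 163 and 263 CPM in KO, against 140, 143 and 127 CPM in WT, also without overlap (0.48 ± 0.23, adjusted p = 0.418). Uqcrb, the subunit near the quinone pocket, had the highest log2 fold change, 0.49 ± 0.24 (adjusted p = 0.422). Uqcrh, the hinge protein beside cytochrome c1, had the lowest, 0.22 ± 0.25 (adjusted p = 0.744), with 231, 252 and 381 CPM in KO, against 297, 250 and 193 CPM in WT.

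Complex IV held both the largest and one of the 2 negative log2 fold changes of the nuclear members. Cox7a1 (ENSMUSG00000074218, chromosome 7, 30184144 to 30186078 on the plus strand of GRCm38), the subunit VIIa form of heart and skeletal muscle, had 119, 170 and 237 counts in KO, against 93, 76 and 60 in WT. On CPM it was 6.11, 10.5 and 12.7 in KO, against 3.98, 3.87 and 3.37 in WT. Every KO library lay above every WT library, with KO 1 the closest to WT. The log2 fold change was 1.39 ± 0.30, with an adjusted p of 0.125 in edgeR and 0.00323 in DESeq2, and the authors' deposited table lists a false discovery rate of 0.00366, the only member there below 0.05. Over the alternatives tried, its adjusted p ran from 3.23e-06 to 0.340. In DESeq2 it passed without KO 1, without KO 2 and without any of the WT libraries, and missed without KO 3 (adjusted p = 0.0503).

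Smooth muscle markers were also higher in KO as a sum. The 10 smooth muscle markers, all found in every library, summed to 3964, 4708 and 4758 CPM in KO, against 3642, 2788 and 2281 CPM in WT, with 9 of 10 log2 fold changes above 0. None was called by edgeR, and 3 were called higher by DESeq2 (against 0.678% of all genes). In 4 of the 10 markers every KO library lay above every WT library, against 9.34% of all genes. The largest log2 fold change of the 10 was that of Actg2, the smooth muscle actin of the gut. Actg2 had 477, 611 and 681 CPM in KO, against 336, 244 and 196 CPM in WT (1.19 ± 0.25, adjusted p = 0.116). The sums of the KO libraries lay above all WT sums. Of 6 skeletal muscle markers 3 were tested, and the 6 summed to 20.3, 18.8 and 30.8 CPM in KO, against 18.3, 16.5 and 17.2 CPM in WT, also without overlap and with none called. Ckm, the muscle creatine kinase, had 10.3, 9.35 and 16.0 CPM in KO, against 8.55, 8.25 and 4.54 CPM in WT, without overlap (0.74 ± 0.32, adjusted p = 0.382). Acta1, skeletal muscle actin, had 9.40, 7.55 and 12.8 CPM in KO, against 7.44, 6.82 and 11.2 CPM in WT, with overlap (0.23 ± 0.28, adjusted p = 0.772). The fast myosin Myh4 had 0 counts in 5 libraries and 1 count in WT 3. The part of muscle content in the Cox7a1 values was not tested.

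Cox7a1 was a minor form next to its common partner. Per length it stood at 43.7 ± 13.9 TPM in KO and 17.5 ± 1.70 TPM in WT, beside 452 TPM in KO and 369 TPM in WT for Cox7a2, the form of most tissues, whose log2 fold change was 0.36 ± 0.22 (adjusted p = 0.518). The lung and hypoxia form Cox4i2 had 0.924, 1.73 and 0.805 CPM in KO, against 0.727, 1.17 and 0.617 CPM in WT, with few counts and overlapping groups (0.45 ± 0.46, adjusted p = 0.723). Its partner Cox4i1 had 503, 506 and 913 CPM in KO, against 707, 634 and 480 CPM in WT. Only KO 3 was high, and the log2 fold change of 0.077 ± 0.29 (adjusted p = 0.929) was below 0 without KO 3. Cox6b2, the testis form of subunit VIb, had a log2 fold change of 0.25 ± 0.50 (adjusted p = 0.862), and its common partner Cox6b1 0.37 ± 0.23 (adjusted p = 0.535).

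**Figure D5:**
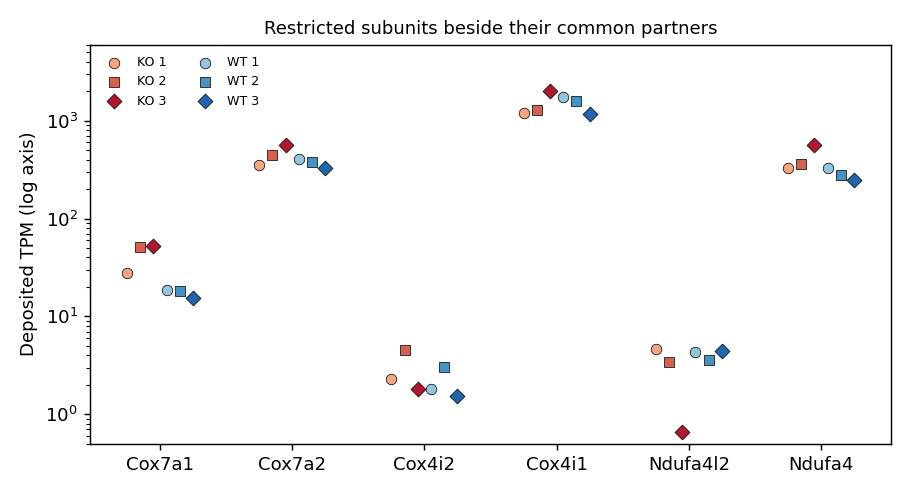
Deposited TPM (log axis) of 3 subunit forms of restricted expression, each left of its common partner, with 1 point per library, KO points left of WT points. Cox7a1 was higher in all 3 KO libraries, and Ndufa4l2 was low in KO 3 alone.

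Of the other nuclear subunits of complex IV, Cox5a, a subunit on the matrix side, had 198, 202 and 311 CPM in KO, against 186, 181 and 163 CPM in WT, without overlap (0.43 ± 0.20, adjusted p = 0.419). Cox6a1, the common form of subunit VIa, had 398, 383 and 573 CPM in KO, against 351, 347 and 338 CPM in WT, without overlap (0.39 ± 0.21, adjusted p = 0.469). Cox7b and Cox8a had log2 fold changes of 0.43 and 0.15 (adjusted p = 0.455 and 0.816). Cox8a was among the most abundant nuclear members per length, at 1608 ± 300.4 TPM in KO and 1519 ± 199 TPM in WT, beside 1600 ± 47.0 TPM in KO and 1557 ± 189.6 TPM in WT for Atp5b. Cox7a2l (ENSMUSG00000024248, chromosome 17, 83501918 to 83517330) was the abundant member with the opposite sign. It had 179, 169 and 222 CPM in KO, against 264, 224 and 178 CPM in WT, and the groups overlapped (-0.23 ± 0.19, adjusted p = 0.664). KO 3 was not the highest library for it.

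Ndufa4l2, the other member below 0, is a hypoxia-induced paralog of Ndufa4. It had 2.41, 1.67 and 0.376 CPM in KO, against 2.18, 1.78 and 2.30 CPM in WT. KO 3 alone was low, and the log2 fold change was -0.49 ± 0.57 (adjusted p = 0.758). The common Ndufa4 had 113, 115 and 212 CPM in KO, against 110, 90.7 and 83.9 CPM in WT, without overlap (0.63 ± 0.26, adjusted p = 0.362). The 8 markers of pericytes, which line small vessels, summed to 328, 346 and 241 CPM in KO, against 588, 437 and 492 CPM in WT, with 0 of 7 tested above 0. Of these markers, edgeR called 1 lower (against 22 of all 14553 genes tested) and DESeq2 called 2 lower (against 2.76% of all genes). The 8 endothelial markers summed to 246, 191 and 79.4 CPM in KO, against 280, 308 and 345 CPM in WT, with 0 of 8 above 0. None was called by edgeR, and 2 were called lower by DESeq2 (against 2.76% of all genes). KO 3 was lowest in both lists as in Ndufa4l2, which had 7 counts there. This was not particular to vessel cells. KO 3 was also the lowest library for the fibroblast (674 CPM), macrophage (126 CPM), neutrophil (61.9 CPM) and B and plasma cell (192 CPM) sums. The part of any cell type in the Ndufa4l2 value was not tested.

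All 17 tested nuclear members of complex V had a log2 fold change above 0, with a median of 0.269 and none called. The 5 subunits of the catalytic F1 head had a median of 0.196. Atp5b, the catalytic beta subunit, had 1767, 1551 and 1888 CPM in KO, against 1520, 1811 and 1523 CPM in WT, and the groups overlapped (0.10 ± 0.17, adjusted p = 0.842). The 3 genes Atp5g1, Atp5g2 and Atp5g3 encode the same mature c-ring protein with different targeting peptides, and whether their log2 fold changes differed from each other was not tested. Atp5g1 had 205, 178 and 298 CPM in KO, against 157, 170 and 152 CPM in WT, without overlap (0.51 ± 0.21, adjusted p = 0.357). Atp5g2 had 151, 135 and 218 CPM in KO, against 172, 168 and 148 CPM in WT (0.049 ± 0.20, adjusted p = 0.937), and its direction turned without KO 3 or without WT 3. Atp5g3 had a log2 fold change of 0.28 ± 0.23 (adjusted p = 0.658). Atp5md, a small subunit of the membrane part (ENSMUSG00000071528, chromosome 19, 47083464 to 47090647), had 75.8, 86.7 and 125 CPM in KO, against 72.0, 66.4 and 56.1 CPM in WT. Its groups did not overlap, and its log2 fold change of 0.56 ± 0.20 (adjusted p = 0.312) was the highest of the nuclear members of this complex.

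Nuclear respiratory chain genes are known targets of the factors NRF1, GABP and YY1, and their promoters were searched for the motifs of these factors. A RefSeq promoter (GRCm38.p6, 250 bases before to 50 after the start) was matched for 68 of the 82 tested nuclear members. The NRF1 motif GCGCANGCG stood, on either strand, in 29.4% of them, against 13.8% of 11268 genes tested and 7.03% of 27025 promoters in all. The GABP motif CCGGAAG stood in 25.0%, against 18.1% and 9.93%, and the YY1 motif AAGATGGC in 14.7%, against 4.79% and 3.19%. No motif holds another, and a match describes the letters only. A pair of subunits of complex IV shows both ends of this range. The promoter of Cox6a1 (chr5:115348909-115349208, minus strand), a form of most tissues, held 3 matches to the NRF1 motif, of which a pair overlap, and 1 to the GABP motif on the other strand, all in capitals. The promoter of Cox7a1 (chr7:30183921-30184220, plus strand), a muscle form, held none of the 3 motifs in this window.
Cox6a1: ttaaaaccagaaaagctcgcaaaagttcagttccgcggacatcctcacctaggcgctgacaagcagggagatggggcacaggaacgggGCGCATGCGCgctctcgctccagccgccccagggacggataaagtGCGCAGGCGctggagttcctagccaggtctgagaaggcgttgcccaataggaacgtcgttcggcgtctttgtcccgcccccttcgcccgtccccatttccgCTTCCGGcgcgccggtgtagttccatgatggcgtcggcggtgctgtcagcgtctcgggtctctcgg
Cox7a1: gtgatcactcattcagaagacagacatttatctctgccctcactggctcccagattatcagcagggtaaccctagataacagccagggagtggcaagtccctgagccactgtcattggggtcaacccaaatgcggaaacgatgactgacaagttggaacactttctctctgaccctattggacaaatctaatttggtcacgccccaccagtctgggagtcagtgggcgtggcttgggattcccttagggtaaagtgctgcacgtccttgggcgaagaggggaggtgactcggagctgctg

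Genes that serve the chain without being part of it were read from 6 lists, and edgeR called none of their members. Of 45 tested assembly factors, 42 had a log2 fold change above 0 (median 0.312), against 54.2% of all genes tested. In 15 of the 45 every KO library lay above every WT library, against 9.34% of all genes. Ndufaf4, which helps to build complex I, had 13.0, 23.2 and 17.3 CPM in KO, against 9.19, 8.09 and 12.0 CPM in WT (0.87 ± 0.26, adjusted p = 0.235). Tmem70, an assembly factor of ATP synthase, had 30.1, 38.3 and 27.8 CPM in KO, against 20.1, 21.9 and 23.0 CPM in WT (0.57 ± 0.18, adjusted p = 0.250). Both were without overlap, and KO 2 was their highest library. The assembly factors as a sum were highest in KO 3, with 1148, 1115 and 1452 CPM in KO, against 1040, 1035 and 956 CPM in WT. Among 20 electron carriers and entry enzymes, 17 lay above 0 (median 0.213), including cytochrome c, Cycs, with 209, 264 and 332 CPM in KO, against 167, 202 and 183 CPM in WT (0.54 ± 0.20, adjusted p = 0.310), and the electron transfer enzyme Etfdh (0.30 ± 0.13, adjusted p = 0.372).

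Factors that copy, transcribe and process mitochondrial DNA and RNA lay above 0 in 24 of 26 cases (median 0.353). In 12 of the 26 every KO library lay above every WT library, against 9.34% of all genes. Fastkd1, an RNA-binding protein of mitochondria, had 15.6, 20.2 and 16.2 CPM in KO, against 10.8, 9.87 and 9.88 CPM in WT, without overlap (0.77 ± 0.18, adjusted p = 0.154 in edgeR and 0.0252 in DESeq2). Pnpt1, the mitochondrial polynucleotide phosphorylase, had 24.4, 31.2 and 24.5 CPM in KO, against 16.7, 16.8 and 18.4 CPM in WT, without overlap (0.63 ± 0.17, adjusted p = 0.200 in edgeR). Fastkd1 and Pnpt1, named for their small p, were not highest in KO 3, but the list as a sum was. It held 602, 581 and 643 CPM in KO, against 491, 517 and 481 CPM in WT. Of 13 regulators of mitochondrial biogenesis, 10 lay above 0 (median 0.088). The nuclear receptor Esrrg had 1.23, 5.26 and 1.29 CPM in KO, against 0.470, 0.763 and 1.29 CPM in WT, with KO 2 alone high (1.62 ± 0.67, adjusted p = 0.366), and the fatty acid receptor Ppara had 8.37, 7.55 and 11.2 CPM in KO, against 12.9, 13.6 and 12.0 CPM in WT (-0.50 ± 0.21, adjusted p = 0.376).

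The TCA cycle, which supplies the chain with NADH and succinate, lay above 0 in 18 of 19 genes (median 0.231). In 7 of the 19 every KO library lay above every WT library, against 9.34% of all genes. Idh3a, the catalytic subunit of its NAD-dependent isocitrate dehydrogenase, had 117, 142 and 122 CPM in KO, against 65.1, 70.4 and 92.5 CPM in WT. The KO libraries all lay above WT (0.74 ± 0.17), with an adjusted p of 0.138 in edgeR and 0.0146 in DESeq2. Fumarase, Fh1, had 120, 116 and 156 CPM in KO, against 98.4, 101 and 96.1 CPM in WT (0.41 ± 0.15, adjusted p = 0.315). Genes of exchange and coupling across the mitochondrial membranes lay above 0 in 14 of 15 cases (median 0.221), with the prohibitin Phb at 0.53 ± 0.19 (adjusted p = 0.300) and the import channel Timm23 at 0.37 ± 0.14 (adjusted p = 0.341).

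Most nuclear members are short genes, and short genes as a class were compared with them. By the effective length that the deposited counts and TPM imply, 62 of the 82 tested nuclear members were among the 1456 shortest genes tested. Among these genes the median log2 difference from the WT mean in KO 3 was 0.76 over the members and 0.38 over all of them, and the median log2 fold change was 0.353 over the members and 0.137 over all. By the exon length of GENCODE M21, the 454 genes under 1000 bases had a median log2 fold change of -0.059, against 0.37 for the 19 nuclear members of that length. The 2 lengths gave different values for short genes in general, and the part of gene length in the values of KO 3 was not tested. Several nuclear members have near-identical pseudogenes, and stretches of the mitochondrial genome have copies in nuclear DNA, so that reads could have been split or added in a way that these counts cannot show.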

How the data were processed

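Total RNA of colon was taken with Trizol and made into libraries with a SMARTER mRNA kit, per the labels' protocols. The authors deposited whole-number counts per gene and library, TPM, and a p-value, false discovery rate and log2 fold change of their own comparison; only the false discovery rate of the members was used from the latter. Of genome builds, GRCm38, mm10 and mm39 stand in the submitters' processing notes, with no role given. For the aligner, counter, annotation and strand setting, nothing is stated in the sources used here.

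Counts were tested with the edgeR 4.0.16 quasi-likelihood F-test in R 4.3.3 (TMM factors, default expression filter by group, Benjamini-Hochberg adjusted p below 0.05, all 6 libraries). Dispersion was 0.084 in common (coefficient of variation 29%). Standard errors were derived from the F statistic. CPM are TMM-scaled. Levels of different genes were compared on deposited TPM. Shares have Wilson 95% intervals. Positions and exon lengths came from GENCODE M21 (GRCm38), matched by identifier for all 102 members, and promoters from RefSeq (GRCm38.p6). A log2 difference of a library is taken from the WT mean CPM. No test was made over the members as a group.

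The members, the 6 pathway lists, the 15 cell type lists (268 genes in all) and the tests were chosen with earlier results of these data known. The genes named were the mitochondrial members; in each complex the nuclear members with the 2 smallest p, the highest and lowest log2 fold change and the highest TPM; tissue-specific forms with their partners; Sdha to Sdhd; and the 2 smallest p of each pathway list. Others (Epcam, Krt8, Cdh1, Car1, Actg2, Ckm, Acta1, Myh4 and Atp5g3) were named after their values were seen. The fit was tested on simulated data. Alternatives were DESeq2 1.42.0, limma 3.58.1 (voom, and log2(TPM + 1)), other scaling factors and filters, a replicate block, and each library left out.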

Additional observations from a re-analysis of the deposited data

How the results depend on the processing

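The number of members called was 0 in edgeR under every scaling, filter, block and left-out library that was tried, and in limma. DESeq2 called 1 (Cox7a1). DESeq2 with 1 library left out was added after seeing the data, and called 18 members without KO 1, 0 without KO 3 and 1 without each of the other 4 libraries. Calls over all genes also rose without KO 1, to 231 higher and 769 lower of 17638, against 106 higher and 431 lower with all libraries. Without KO 3 they were 112 higher and 372 lower of 17644. Over all genes, where edgeR called 23, DESeq2 called 537, limma on log2(TPM + 1) 58, and edgeR 9 with median-ratio factors, 39 with upper-quartile factors, 69 with no count filter and 134 at an adjusted p below 0.1, and between 1 and 29 with 1 library left out. The median log2 fold change lay between 0.44 and 0.96 for mitochondrial and between 0.10 and 0.44 for nuclear members with 1 library left out, lowest in both without KO 3. The cause of these shifts was not tested.

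Of 860 values for 41 named members under the alternatives, 822 kept direction and side of the threshold, 22 came to pass it, all in DESeq2, and 16 changed sign. Without KO 3, in edgeR and in DESeq2, the sign turned for Atp5g2 (-0.18 and -0.18), Cox4i1 (-0.27 and -0.26), Cox8a (-0.079 and -0.073), Ndufa6 (-0.040 and -0.034) and Uqcrh (-0.032 and -0.027). Without WT 3 it turned for Atp5g2 (-0.015 and -0.016) and Cox4i1 (-0.065 and -0.065). In limma on log2(TPM + 1) it turned for Atp5g2 (-0.035) and Cox4i1 (-0.020). With 1 library left out, edgeR gave values up to 0.18 for Atp5g2, 0.23 for Cox4i1, 0.27 for Cox8a, 0.33 for Ndufa6 and 0.37 for Uqcrh.

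Replicate numbers are shared by the groups, and the labels do not say whether same-numbered libraries were paired. Their deviations from the group means had correlations of -0.42, -0.15 and -0.43. Deviations from a mean of 3 libraries are tied to each other, so these correlations cannot show whether the libraries were paired. With the replicate number as a block, edgeR called 81 genes and 0 members, and the medians were 0.63 for mitochondrial and 0.29 for nuclear members. Depth limited the 7 untested members and those with few counts, such as Cox4i2, Cox6b2 and Ndufa4l2.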
